A study of Mus musculus with 36 samples.

Results

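Cirbp and Rbm3 encode cold-inducible RNA-binding proteins, and their transcripts were followed over 24 h in the liver of mice exposed to chronic intermittent hypoxia (IH) or to air. Both genes were found by their symbol, each on 1 row, among the 24066 symbols that the expression tables list on a single row, and both were among the 13215 genes tested. All 36 libraries were made from liver polyadenylated RNA of wild-type male C57BL/6JRj mice aged 16 weeks, kept under 12 h of light and 12 h of dark with lights on at zeitgeber time (ZT) 0. The IH mice received 60 cycles of hypoxia and reoxygenation per hour, between 5% and 21% inspired oxygen, from ZT0 to ZT8 on each day for 4 weeks. The control mice received air cycles on the same schedule. Livers were taken at ZT0, ZT4, ZT8, ZT12, ZT16 and ZT20 from 3 mice per condition, each mouse giving 1 library, and the labels give no batch. The exposure fell in the rest phase of these nocturnal animals, so that ZT4 lay within the hypoxia, ZT8 at its end, and the other time points outside it or at its onset.

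CIRBP and RBM3 are small glycine-rich proteins that bind RNA through an RNA recognition motif. A fall in temperature of a few degrees raises their levels in mammalian cells, and simulated daily rhythms of body temperature are known to drive them in cultured cells. CIRBP binds transcripts of clock genes and affects the choice of their polyadenylation sites, and RBM3 is known for promoting translation in the cold and for protecting neurons. The heat shock genes respond to a rise in temperature instead, and their chaperones are induced by the factor HSF1. Body temperature is lower in mice at rest in the light than during activity in the dark. Body temperature was not analysed here, and every value below is a transcript level.

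In the GENCODE annotation of GRCm38 (mm10), Cirbp (ENSMUSG00000045193.13) lies at chr10:80165985-80172786 on the plus strand, with 7 annotated transcripts, and overlaps no other gene. Rbm3 (ENSMUSG00000031167.16) lies at chrX:8138975-8145880 on the minus strand, with 11 annotated transcripts. Its start overlaps the antisense gene Rbm3os by 452 bases. Rbm3os was listed at no more than 0.28 FPKM in any library. A processed pseudogene, Rbm3-ps, lies at chr1:150265535-150265999, and reads could be shared between it and Rbm3. The values are sums per gene and do not separate isoforms.

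The sequence before a start site of Cirbp is shown because it holds a match to the 8-base mild-cold response element, TCCCCGCC, known from this gene. It is the part of the RefSeq promoter window (GRCm38.p6) that precedes the first annotated exon in it, 189 bases at chr10:80167589-80167777 on the plus strand, written 5′ to 3′ with the match in capitals. The stretch precedes 1 RefSeq start and lies inside the gene as GENCODE spans it, since 1 annotated transcript begins further 5′.
Cirbp, before 1 RefSeq start: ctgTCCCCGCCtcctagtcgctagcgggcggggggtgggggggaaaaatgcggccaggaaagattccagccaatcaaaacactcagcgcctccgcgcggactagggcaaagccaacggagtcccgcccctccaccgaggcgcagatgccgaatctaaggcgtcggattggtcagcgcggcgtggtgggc
The match begins at position -247, counted from the RefSeq start. On either strand TCCCCGCC occurs in 5.38% of the 32851 promoter windows of 300 bases, and it overlaps no other motif searched here. The same window of Cirbp holds 3 matches to the GC box GGGCGG, present in 35.7% of windows, and 2 to CCAAT, present in 37.4%. It has no match to the heat shock element GAANNTTC (7.86% of windows), to the E-box CACGTG (7.15%) or to ACGTG, the core of the hypoxia response element (19.6%). A second RefSeq window of Cirbp, further downstream, holds 4 GC boxes and none of the other motifs. These matches are letters in a window, and no binding was measured.

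The deposited values are FPKM, scaled for transcript length and for the fragments in each library, and the number of reads behind them is not known. The analysed symbols of a library summed to between 540095 and 579428 FPKM in 35 libraries and to 758113 in control ZT12 replicate 2. Replicates correlated across genes with r of at least 0.978 within the other groups and as low as 0.949 in control at ZT12. The 6 hepatocyte markers (Alb, Apoa1, Ttr, Cyp2e1, Cps1 and Serpina1a) summed to between 42400 and 67890 FPKM in control and between 42970 and 60500 in IH. The 6 leukocyte and Kupffer cell markers summed to between 12.3 and 72.7 FPKM in control and between 10.2 and 22.3 in IH, and the 4 adipose and muscle markers to no more than 0.0649. Since these are whole-tissue libraries, fewer cells of a type and less RNA per cell cannot be told apart.

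Cirbp had a daily rhythm with its highest level at ZT4, in the first part of the rest phase, and its lowest at ZT16 in the dark. In control the 3 mice had 8.54, 5.61 and 10.4 FPKM at ZT0, 18.7, 23.6 and 18.0 at ZT4, and 16.1, 14.9 and 12.9 at ZT8. They had 15.4, 5.54 and 9.23 FPKM at ZT12, 5.04, 5.07 and 5.87 at ZT16, and 9.98, 7.94 and 9.59 at ZT20. The ZT4 libraries were thus the highest of the day and did not overlap those of any other time point, and the ZT12 libraries were the most scattered, from a level near that of ZT8 to one near that of ZT16. The mean was 20.1 ± 3.07 FPKM at ZT4 and 5.33 ± 0.472 FPKM at ZT16 (SD, n = 3), a 3.78-fold range.

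In IH a like shape was seen. The mean at ZT4 was higher than in control, but the libraries overlapped and no difference was called (limma adjusted p = 0.57). The IH mice had 6.35, 8.50 and 10.8 FPKM of Cirbp at ZT0, 25.5, 28.5 and 20.1 at ZT4, and 24.4, 19.4 and 16.4 at ZT8. At ZT12 they had 9.18, 5.52 and 7.73 FPKM, at ZT16 6.31, 6.87 and 6.55, and at ZT20 8.43, 8.14 and 7.70. In IH the ZT4 and ZT8 libraries overlapped each other and stood above all 12 others. In control these 2 time points also had the highest means, 20.1 and 14.7 FPKM, with only ZT12 replicate 1 within their range. From ZT8 to ZT12 the mean was 0.373-fold in IH and 0.686-fold in control, and the groups at these time points overlapped only in control. That overlap rested on control ZT12 replicate 1 alone, at 15.4 FPKM against 5.54 and 9.23 in replicates 2 and 3. The mean was 24.7 ± 4.25 FPKM at ZT4 and 6.57 ± 0.281 FPKM at ZT16 (SD, n = 3), a 3.75-fold range.

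A cosine with a 24-h period, fitted with limma to log2(FPKM + 1) within each condition, called the Cirbp rhythm in control (nominal P = 0.000229, adjusted p = 0.00396) and in IH (nominal P = 9.72e-06, adjusted p = 0.00016), and permutation of the time labels gave P = 0.00155 and 8e-05. The threshold was a nominal P of 0.01, which 20.0% of the 13215 genes passed in control, 39.9% in IH and 15.5% in both, so that a rhythm call alone does not set the gene apart. Its size was less common on the log2(FPKM + 1) scale, which understates the amplitudes of low genes. The log2 amplitude of Cirbp was 0.69 (SE 0.142) in control and 0.86 (SE 0.135) in IH, above that of 98.5% and 99.0% of all genes tested. Among the genes with a called rhythm in the same condition, it was above that of 93.6% and 97.9%. The genes compared reach down to a mean of 0.1 FPKM and were not matched to Cirbp by level. The fitted peak was 2.60-fold above the trough in control and 3.31-fold in IH. The cosine took up 61.1% of the variance in control and 73.1% in IH. The fitted maximum lay at 5.35 h (95% interval 3.68 to 7.03 h) in control and at 5.34 h (4.06 to 6.61 h) in IH.

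**Figure D1:**
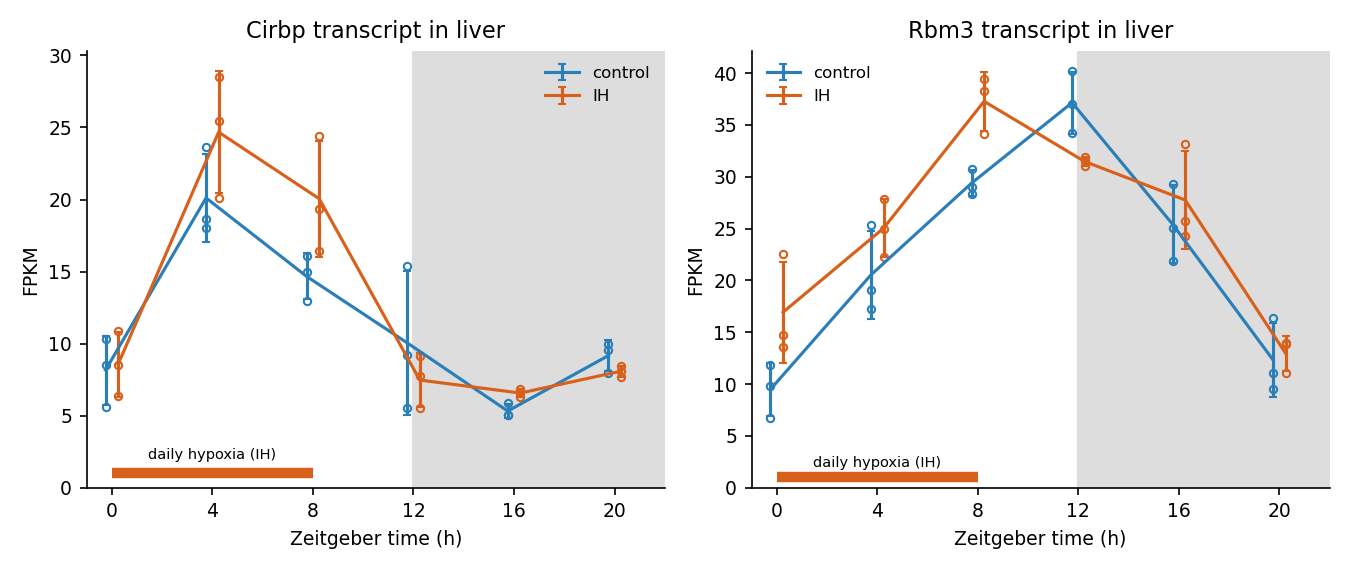
FPKM of Cirbp (left) and Rbm3 (right) against zeitgeber time, with open circles for single mice, lines and bars for the mean and SD of 3 mice, blue for control, orange for IH, grey for the dark phase and an orange strip for the hours of hypoxia. Cirbp is highest at ZT4 in both conditions, while Rbm3 is highest at ZT12 in control and at ZT8 in IH.

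Rbm3 had a rhythm of like size that peaked later, toward the light-dark transition. The control mice had 6.76, 9.87 and 11.9 FPKM at ZT0, 19.0, 17.3 and 25.3 at ZT4, and 30.8, 29.0 and 28.4 at ZT8. They had 40.2, 37.0 and 34.2 FPKM at ZT12, 25.1, 21.9 and 29.3 at ZT16, and 16.4, 9.51 and 11.1 at ZT20. The ZT12 libraries stood above all others, and each mean from ZT0 to ZT12 was higher than the one before, with no overlap between neighbouring groups. The ZT20 and ZT0 libraries overlapped and were the lowest. The mean was 37.1 ± 2.98 FPKM at ZT12 and 9.50 ± 2.57 FPKM at ZT0 (SD, n = 3), a 3.91-fold range.

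Under IH the highest mean of Rbm3 was at ZT8, at the end of the hypoxia. The IH mice had 14.7, 22.5 and 13.6 FPKM of Rbm3 at ZT0, 22.3, 27.8 and 25.0 at ZT4, and 39.5, 34.1 and 38.3 at ZT8. At ZT12 they had 31.5, 31.0 and 31.9 FPKM, at ZT16 24.3, 25.8 and 33.2, and at ZT20 13.9, 11.0 and 13.9. The ZT8 libraries stood above all others, the ZT12 libraries were tightly grouped below them, and the ZT20 libraries were the lowest with an overlap at ZT0. The mean was 37.3 ± 2.83 FPKM at ZT8 and 13.0 ± 1.66 FPKM at ZT20 (SD, n = 3), a 2.88-fold range.

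The cosine fit called the Rbm3 rhythm in control (limma, nominal P = 1.67e-08, adjusted p = 6.11e-06) and in IH (nominal P = 4.64e-07, adjusted p = 2.16e-05), and permutation of the time labels gave P = 1e-05, the smallest that the resamples allow, and 3e-05. By this P it ranked 36 of the 13215 genes in control and 284 in IH, while Cirbp ranked 764 and 802. The log2 amplitude of Rbm3 was 0.92 (SE 0.0921) in control and 0.68 (SE 0.0843) in IH, above that of 99.2% and 98.0% of all genes tested. Among the genes with a called rhythm in the same condition, it was above that of 96.8% and 95.6%. As for Cirbp, the scale understates the amplitudes of low genes, and the genes compared were not matched by level. The fitted peak was 3.60-fold above the trough in control and 2.57-fold in IH, and the cosine took up 87% and 81.3% of the variance. The fitted maximum lay at 10.9 h (95% interval 10.1 to 11.7 h) in control and at 9.72 h (8.71 to 10.7 h) in IH.

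The 2 genes were out of step with each other. The maximum of Rbm3 came 5.53 h (SE 0.863, 95% interval 3.69 to 7.37 h) after that of Cirbp in control and 4.38 h (SE 0.755, 2.78 to 5.99 h) after it in IH, with the covariance of the genes in the same libraries taken into account. Fitted to each replicate number by itself, in the order 1, 2 and 3, the maximum of Cirbp lay at 6.47, 5.08 and 4.47 h in control and that of Rbm3 at 11.5, 10.6 and 10.5 h. In IH it lay at 6.34, 4.73 and 4.83 h for Cirbp and at 9.87, 8.61 and 10.5 h for Rbm3. In every such set Rbm3 was the later gene. The sets join different mice by number and only divide the libraries already fitted. Without control ZT12 replicate 2, the library with the highest FPKM sum, both rhythms were still called in control and the maxima lay 5.05 h apart.

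On the FPKM scale, which is per transcript length, the ratio of Cirbp to Rbm3 therefore changed over the day. At ZT4 it was 1.02 ± 0.331 in control and 0.989 ± 0.171 in IH, so that the transcripts were about equally abundant. At ZT16 it was 0.211 ± 0.0181 in control and 0.241 ± 0.0382 in IH (SD, n = 3). At ZT0 the ratio was 0.902 ± 0.348 in control and 0.536 ± 0.229 in IH, and these libraries overlapped. Over the 36 libraries log2(FPKM + 1) of the 2 genes correlated with r = 0.24, a description over libraries that share time of day.

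**Figure D2:**
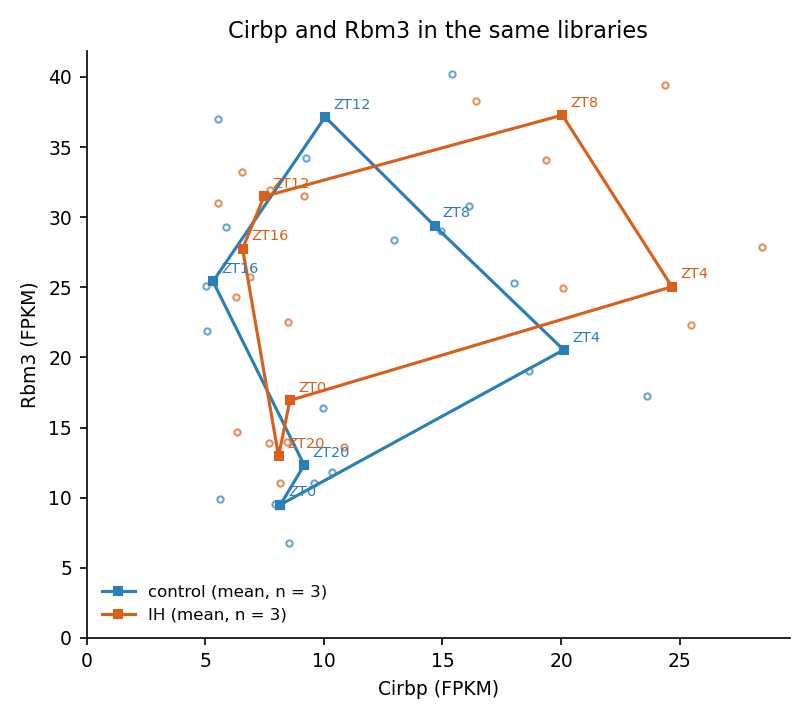
Rbm3 against Cirbp in the same libraries, both in FPKM, with open circles for single mice and squares joined in order of zeitgeber time for the means of 3 mice in control (blue) and IH (orange). The path is an open loop in both conditions, with Rbm3 at 37.1 FPKM and Cirbp at 10.1 FPKM in control at ZT12, and at 31.5 and 7.48 FPKM under IH.

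The rest phase (ZT4 and ZT8) was compared with the active phase (ZT16 and ZT20) in 1 limma fit over the 12 groups. Cirbp was higher at rest by 1.18 on the log2(FPKM + 1) scale in control (SE 0.164, adjusted p = 1.88e-05), with means of 17.4 and 7.25 FPKM. In IH it was higher by 1.47 (SE 0.164, adjusted p = 1.85e-07), with means of 22.4 and 7.33 FPKM. In all, 9.15% of the genes tested were higher at rest in control and 17.5% in IH. The rest-to-active difference of Cirbp was larger in IH by 0.29 (SE 0.232, 95% interval -0.18 to 0.77, adjusted p = 0.965), which was not detected as a difference.

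Rbm3 was higher at rest by 0.46 in control (SE 0.131, limma adjusted p = 0.0174), with means of 25.0 and 18.9 FPKM, and by 0.66 in IH (SE 0.131, adjusted p = 0.000335), with means of 31.2 and 20.4 FPKM. This contrast leaves out ZT0 and ZT12, where the trough and the peak of Rbm3 lay in control. With all light time points (ZT0, ZT4 and ZT8) against all dark ones (ZT12, ZT16 and ZT20), Rbm3 was lower in the light in control, by -0.32 (adjusted p = 0.0327), and its difference in IH was 0.14 (adjusted p = 0.349). The control value was not called when the control libraries were fitted alone (adjusted p = 0.0586) or without any 1 of control ZT4 replicate 3, ZT16 replicate 2 and ZT20 replicate 2 (adjusted p from 0.0566 to 0.0654). The rest-to-active difference did not differ detectably between the conditions (IH minus control 0.20, SE 0.185, 95% interval -0.18 to 0.58, adjusted p = 0.992).

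A difference between the rhythms of IH and control was sought in a single fit of all 36 libraries, through the interaction of the cosine with condition. Neither gene passed, with an adjusted p of 0.95 for Cirbp (limma, unadjusted P = 0.657) and 0.92 for Rbm3 (unadjusted P = 0.0275). No gene of the 13215 was called, the smallest adjusted p was 0.707, and 4.91% of genes had an unadjusted P under 0.05. The phase of Cirbp in IH differed from that in control by -0.02 h, with a 95% interval from -2.04 to 2.00 h that leaves shifts of up to such a size undetected. The phase of Rbm3 was earlier in IH, with a difference of -1.17 h (SE 0.607, 95% interval -2.41 to 0.08 h). The log2 amplitude in IH differed from control by 0.17 for Cirbp (95% interval -0.23 to 0.57) and by -0.24 for Rbm3 (-0.50 to 0.01). All 4 intervals include 0.

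Within the hypoxia and at its end, over the 12 libraries of ZT4 and ZT8, both genes had higher means in IH. Rbm3 passed the test. Rbm3 averaged 31.2 FPKM in IH and 25.0 FPKM in control, a log2 difference of 0.31 (SE 0.0845, 95% interval 0.13 to 0.49, limma adjusted p = 0.0461), and 6 of 6 IH libraries lay above the control mean of their time point. Of all genes tested, 6.05% were called higher in IH at these time points and 1.93% lower. The Rbm3 value is near the threshold. Leaving out any 1 of the 12 libraries except control ZT4 replicate 3 ended the call (adjusted p up to 0.106, with a difference between 0.26 and 0.38 over the 12 fits), and at ZT4 or ZT8 alone the adjusted p was 0.25 and 0.336. With the libraries rescaled to a common sum, by the median of ratios or by quantiles the difference was 0.29, 0.24 and 0.27, with adjusted p of 0.0674, 0.149 and 0.117.

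Cirbp averaged 22.4 FPKM in IH and 17.4 FPKM in control over ZT4 and ZT8, a log2 difference of 0.35 (SE 0.11, 95% interval 0.11 to 0.59) that did not pass after adjustment over all genes (limma adjusted p = 0.074). Without control ZT4 replicate 2 it passed (adjusted p = 0.0458). With sample weights it passed as well (adjusted p = 0.0494). An exact permutation test within time points, with no adjustment over genes, gave p = 0.02, beside an unadjusted limma P of 0.00857. Of 12 settings other than the main fit, 9 left the difference uncalled (adjusted p up to 0.4). Leaving out 1 library gave an adjusted p of up to 0.158. Of the IH libraries, 5 of 6 lay above the control mean of their time point. The difference for Cirbp was thus no smaller than that for Rbm3, and its SE was larger. The median of all genes tested was 0.04 higher in IH at these time points on the same scale.

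Over all 6 time points the difference was smaller. Cirbp averaged 12.6 FPKM in the 18 IH libraries and 11.3 FPKM in the 18 control libraries, a log2 difference of 0.09 (SE 0.0979, 95% interval -0.11 to 0.29, limma adjusted p = 0.729). Rbm3 averaged 25.2 and 22.4 FPKM, a difference of 0.23 (SE 0.0876, 95% interval 0.05 to 0.41, adjusted p = 0.327). Of the 18 IH libraries, 10 lay above the control mean of their time point for Cirbp and 13 for Rbm3. At an adjusted p under 0.05, 0.303% of genes were higher in IH and 0.0530% lower. Without control ZT12 replicate 2 the differences were 0.06 and 0.24. Without the ZT12 libraries of both conditions, a setting chosen after the data were seen, the Rbm3 difference was 0.32 and passed (adjusted p = 0.0482).

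Taken time point by time point, the difference between IH and control in Rbm3 was largest at the onset of the hypoxia. At ZT0 Rbm3 had a mean of 16.9 ± 4.86 FPKM in IH and 9.50 ± 2.57 FPKM in control (SD, n = 3), a log2 difference of 0.77 (SE 0.185, 95% interval 0.39 to 1.15, limma adjusted p = 0.198). All 3 IH libraries lay above all 3 control libraries, as they did for 4.59% of genes at ZT0. By its unadjusted P, 0.000285, Rbm3 ranked 19 of 13215. The difference was 0.56 without IH ZT0 replicate 2, the highest of the 3.

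At ZT4 the Rbm3 difference was 0.29 and at ZT8 0.33 (SE 0.185 at each time point, limma adjusted p = 0.451 and 1). At ZT8 the IH libraries lay above the control libraries without overlap, as for 11.0% of genes. At ZT12 the order was the other way round, with all 3 IH libraries below all 3 control libraries, as for 6.74% of genes, and a difference of -0.23 (adjusted p = 0.447). At ZT16 and ZT20 the differences were 0.12 and 0.09 and the libraries overlapped.

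For Cirbp the differences from ZT0 to ZT20 were 0.07, 0.28, 0.41, -0.31, 0.26 and -0.16 (SE 0.232, limma adjusted p from 0.413 to 1). The IH libraries lay above the control libraries without overlap at ZT8, as for 11.0% of genes, and at ZT16, as for 10.0%. The ZT12 value rested on control ZT12 replicate 1, the only control library of that time point far above the IH libraries, and was 0.03 without it. It was -0.64 without control ZT12 replicate 2.

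**Figure D3:**
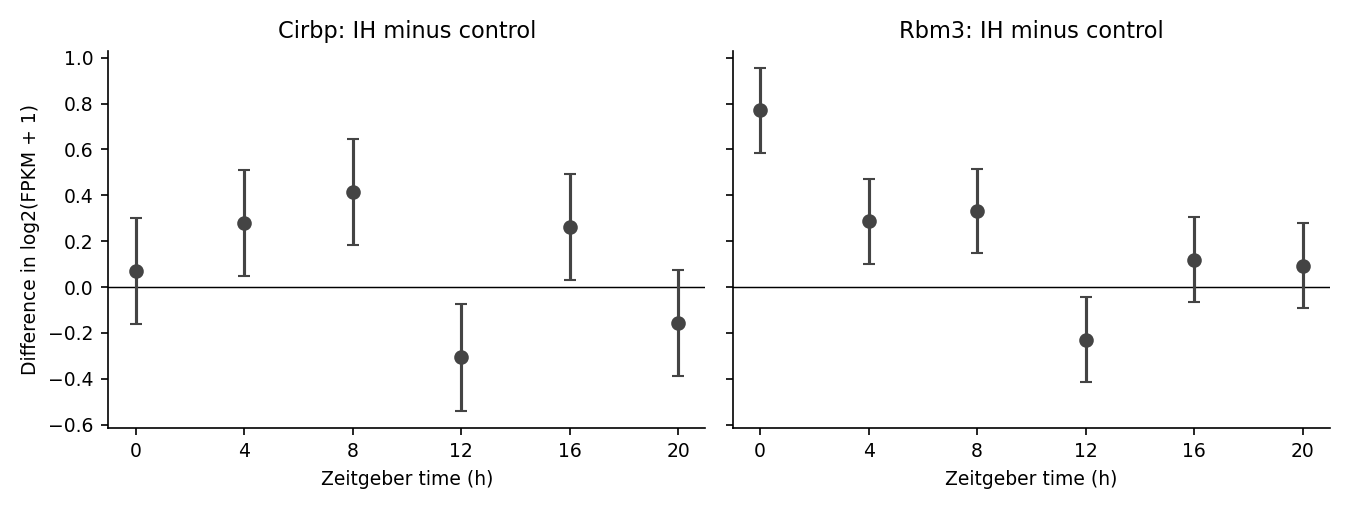
Difference in log2(FPKM + 1) between IH and control at each zeitgeber time for Cirbp (left) and Rbm3 (right), with points for the limma estimate from 3 mice per condition and bars for 1 SE. The highest point is Rbm3 at ZT0 (0.77, limma adjusted p = 0.198), and both genes are below 0 at ZT12. No difference passed the test at any time point.

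Many heat-induced chaperones were lower at rest, where Cirbp was higher. Of 20 genes on the list of chaperones and their factors, the cosine fit called 12 in control, 17 in IH and 12 in both, against 20.0%, 39.9% and 15.5% of all genes tested, and none was higher at rest. The fitted maxima of those called lay from 15.3 to 19.9 h in control, later than that of Rbm3 (10.9 h) and far from that of Cirbp (5.35 h). Lower at rest were 15 in control and 18 in IH, where 5.71% and 11.0% of all genes were lower. The median rest-to-active difference of the list was -0.76 in control and -1.09 in IH on the log2 scale, against 0.02 and 0.03 for all genes tested. The list describes these libraries, and no test of it as a set was made.

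Among its members, Hsph1, a nucleotide exchange factor for HSP70, had a rest-to-active difference of -1.47 in control and -2.41 in IH. Its fitted maximum came at 18.2 h in control and, under IH, at 17.3 h. Hsp90aa1, the inducible cytosolic HSP90, had -1.35 and -2.23, and Hspb1, a small heat shock protein, -1.61 and -1.98. The inducible HSP70 genes Hspa1a and Hspa1b had -1.04 and -1.49 in control and -1.73 and -2.21 in IH. They are near-identical copies, so reads can be assigned to either. Hspa8, the constitutive HSC70, had -0.94 and -1.12 with a maximum at 16.0 h in both conditions. The differences named here passed at an adjusted p under 0.05 (limma). Hsf1 and Hsf2, which encode heat shock factors, had no called rhythm (nominal P from 0.146 to 0.918).

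At ZT4 and ZT8 the means of Cirbp and Rbm3 were higher in IH. Of the 20 listed chaperones and their factors, 7 were called lower in IH there (Hsp90aa1, Stip1, Hspa4l, Fkbp4, Hsp90ab1, Ahsa1 and Hspa4). Of all genes 1.93% were called lower, and none of the list was called higher. Hsp90aa1 differed by -0.85 (SE 0.195, limma adjusted p = 0.0277) and Stip1, an HSP70-HSP90 adaptor, by -0.42 (SE 0.114, adjusted p = 0.0447). Hsph1 differed by -0.82 (SE 0.247, adjusted p = 0.0637). The median over the list was -0.19, against 0.04 for all genes tested. The count depended on single libraries. It was 0 without IH ZT4 replicate 2 or control ZT4 replicate 1, 1 without IH ZT4 replicate 1 or 3, 2 without IH ZT8 replicate 1 or 2 or control ZT4 replicate 3, 3 without control ZT8 replicate 1, and 5 to 9 without any 1 of the other libraries. For none of the 20 genes was the rest-to-active difference detected as differing between IH and control (limma adjusted p from 0.436 upward). None of the 13215 genes tested was called in this contrast either.

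RNA-binding proteins of the splicing machinery, a list of 34 splicing factors, hnRNPs and CLK kinases, did not move as a block. Rhythms were called for 9 of these in control and for 19 in IH, where 20.0% and 39.9% of all genes were called. At rest 4 were higher and 6 lower in control (9.15% and 5.71% of all genes), and 6 were higher and 8 lower in IH (17.5% and 11.0%), with list medians of -0.03 and -0.02. The hnRNP genes Hnrnpd and Hnrnpdl were higher at rest, by 0.43 and 0.46 in control and by 0.54 and 0.57 in IH. Tra2a and Tra2b, splicing activators, were lower at rest, by -0.78 and -0.46 in control. At ZT4 and ZT8 7 members were called higher in IH, among them Srsf5, Hnrnpdl, Hnrnpd, Srsf7, Clk4 and Rbm5, and none lower, against 6.05% and 1.93% of all genes. Hnrnpd was higher by 0.29 (SE 0.052, limma adjusted p = 0.0144).

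The 12 core clock genes, given as a reference for phase, were all rhythmic in both conditions, as 15.5% of all genes were. All had an earlier fitted maximum in IH, with differences from -1.94 h (Cry2) to -0.60 h (Per2). The difference was -1.17 h for Rbm3 and -0.02 h for Cirbp. No clock gene was called in the interaction of the cosine with condition. Tef, Per3 and Cry2 were called higher in IH at ZT4 and ZT8, as 6.05% of all genes were. Their fitted maxima lay near that of Rbm3, at 11.7, 11.8 and 12.4 h in control and 10.6, 10.6 and 10.5 h in IH. Of 11 tested hypoxia-induced genes, 4 had a called rhythm in control and 6 in IH (20.0% and 39.9% of all genes), and 2 were called higher in IH at ZT4 and ZT8 (6.05%). These were Bnip3, a mitophagy receptor, by 0.65 (SE 0.112, limma adjusted p = 0.0136), and Pdk1, a kinase that inhibits pyruvate dehydrogenase, by 0.69 (SE 0.114, adjusted p = 0.0118). Vegfa differed by 0.20 (adjusted p = 0.141) and Egln3 by 0.13 (adjusted p = 0.477).

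The genes whose log2(FPKM + 1) ran most like Cirbp over the 36 libraries were Dyrk1b (r = 0.93), Zc3h6 (r = 0.93), Tigd2 (r = 0.92), Dnmt3a (r = 0.92) and Slc8b1 (r = 0.91). Dyrk1b encodes a protein kinase, Dnmt3a a de novo DNA methyltransferase and Slc8b1 a mitochondrial sodium-calcium exchanger. Within control alone these correlations ran from 0.88 to 0.95 and within IH alone from 0.93 to 0.97. All 5 had their highest mean in control at ZT4, as Cirbp did. In IH Dyrk1b, Zc3h6 and Tigd2 had it at ZT4 with Cirbp, and Dnmt3a and Slc8b1 at ZT8.

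Most like Rbm3 were Immp2l (r = 0.87), Erlec1 (r = 0.85), and Slc37a4, Igfbp4 and Coq7 (r = 0.84 each). Slc37a4 encodes the glucose-6-phosphate transporter of the endoplasmic reticulum, Igfbp4 a binding protein of insulin-like growth factors and Coq7 an enzyme of ubiquinone synthesis. The fitted maxima of these 5 genes lay from 10.2 to 12.1 h in control and from 9.15 to 10.5 h in IH. No gene was among the 5 nearest to both, and Rbm3 ranked 4937 in likeness to Cirbp. These correlations describe libraries that share time of day, and carry no test.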

How the data were processed

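Liver RNA of 36 mice was sequenced as paired-end, stranded, poly-A selected libraries. Per the labels and the study's methods, the authors aligned reads to mm10 with TopHat2 2.1.1 and estimated expression with Cufflinks 2.2.1. The gene annotation is not given in the sources used here. The deposited values are FPKM per gene symbol, with IH and control in separate tables whose columns are named alike. The name of a table was taken as its condition. No counts were given, so depth and its precision are unknown. All columns were used. Of 24346 symbols, the 280 on more than 1 row were left out.

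Tests were run with limma 3.58.1 under R 4.3.3 on log2(FPKM + 1), a scale that understates the fold changes of low genes, and covered 13215 genes whose mean reached 0.1 FPKM. Within each condition a 24-h cosine was tested (moderated F test, nominal P of 0.01). Its interaction with condition, the level with time point as a factor, and contrasts of the 12 group means were tested at a Benjamini-Hochberg adjusted p of 0.05. The rhythm and level tests of the study, BIO_CYCLE and Cyber-T, were not used here. Residuals of same-numbered IH and control mice correlated by 0.0538 on average (over 0.1 in 6 of 18 pairs), so no pairing was used. At ZT12 these correlations were 0.294, 0.266 and 0.136, and shared handling of such pairs was not tested. The tests were checked on simulated data. Alternatives were other rhythm tests, scalings, filters and pseudocounts, sample weights, the replicate number as a block, permutation, and each library left out. Promoters came from RefSeq, which had entries for Cirbp and none for Rbm3. Plots were made in matplotlib 3.10.9 (Python 3.11.15).

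Both members and all gene lists were chosen with earlier results of these data known. Genes named from a list were at most 8 with the largest rest-to-active differences, beside those that passed a level test. Some results under this rule are not reported here. Genes named for likeness were the 5 with the highest correlation. Hsf1, Hsf2, Vegfa and Egln3 were named after their values were seen.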

Additional observations from a re-analysis of the deposited data

Results flagged for a closer look

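The estimated difference between IH and control in Rbm3 had opposite signs at different times of day, though it was called at no single time point. At ZT0 and at ZT8 all 3 IH libraries lay above all 3 control libraries, as for 4.59% and 11.0% of genes. At ZT12 all 3 lay below, as for 6.74% of genes. The ZT0 difference minus the ZT12 difference was 1.00 on the log2(FPKM + 1) scale (SE 0.262, limma unadjusted P = 0.000707, adjusted p = 0.126), and the ZT8 difference minus the ZT12 difference was 0.56 (SE 0.262, unadjusted P = 0.0414, adjusted p = 0.257). Both contrasts were chosen after the data were seen. Neither passed after adjustment over the 13215 genes, of which 4 and 3 were called, and 16% and 18.3% of genes had an unadjusted P under 0.05.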

How the results depend on the processing

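The rhythm calls of Cirbp and Rbm3 in both conditions held under all 14 other settings and in every fit without 1 library, with the highest P, 0.00155, for Cirbp in control under permutation. The interaction was called for neither gene in any setting. For the Rbm3 difference at ZT4 and ZT8, the adjusted p was 0.0674 after rescaling to a common sum (0.289), 0.149 by the median of ratios (0.245), 0.117 by quantiles (0.267), 0.0803 without a filter (0.309), 0.25 at ZT4 alone (0.286) and 0.336 at ZT8 alone (0.331). Without 1 library it ran from 0.262 to 0.379. For Cirbp the difference passed with sample weights (0.379, adjusted p = 0.0494). Of 12 settings other than the main fit, 9 left it uncalled (adjusted p up to 0.4). The exact permutation test within time points gave an unadjusted p of 0.02 (0.346), beside an unadjusted limma P of 0.00857. Without 1 library the Cirbp difference ran from 0.275 to 0.414 (adjusted p up to 0.158). It passed in 1 of 12 such fits (without control ZT4 replicate 2). The Rbm3 difference over all time points passed without ZT12 (0.32, adjusted p = 0.0482). Permutation within time points gave an unadjusted p of 0.0145 (0.228), beside an unadjusted P of 0.0137 in the main limma fit. The permutation p was not adjusted over genes. Light against dark time points turned the Rbm3 contrast in control to -0.323 (adjusted p = 0.0327) and ended its call in IH (0.145). The condition fitted alone gave 0.46 (adjusted p = 0.0586), and leaving out 1 library 0.383 to 0.564. The Rbm3 minus Cirbp phase in control ran from 5.05 to 6.13 h. Small differences at single time points changed sign: Cirbp at ZT0 (-0.106 with sample weights, -0.149 to 0.246 without 1 library) and at ZT12 (-0.635 to 0.0271), and Rbm3 at ZT16 (-0.012 to 0.224) and ZT20 (-0.0609 to 0.302). The listed chaperones and factors called lower in IH at ZT4 and ZT8 numbered 3 without a filter and 11 with sample weights. The cause of these changes was not tested.

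With the replicate number as a block (replicate block), the ZT4 and ZT8 difference was called for Cirbp (0.346, adjusted p = 0.0324) and not for Rbm3 (0.309, adjusted p = 0.0574). It changed no other call. The labels do not say that the numbers pair the mice.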
